A study of Homo sapiens with 10 samples.

Results

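BST2, ISG15, USP18, IFITM3 and SAMD9L are 5 genes that interferon induces, and they were followed here across clones of PC-3, an established human prostate cancer cell line. They are 5 of 14884 genes with a named probe set on the array, and each is represented by 1 probe set. The 5 were selected on their values in the CENPU-against-control contrast of these same clones, so the differences between groups given for them are descriptions without a test. One group was 5 clones that had received a p-Lenti lentiviral vector carrying CENPU, numbered 1, 4, 5, 7 and 13. The other was 5 clones, numbered 1 to 5, with the same vector left empty. Both groups had gone through selection with blasticidin (written blastocydin in the labels) and growth from clonal isolates, and total RNA of each clone was hybridised to 1 Affymetrix array. CENPU encodes a subunit of the inner kinetochore. The comparison asks what differs between PC-3 clones that overexpress it and clones that do not. No interferon treatment is named in the labels, so the levels are those of cells with no stated stimulus. Each sample is a single clone, and differences between clones of 1 group are part of the spread within it. RNA of a whole clone cannot tell a change in all its cells from a change in some of them.

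Type I interferons bind a receptor whose Janus kinases phosphorylate transcription factors of the STAT family, and these join IRF9 and bind interferon-stimulated response elements in the promoters of target genes. Many tumour lines keep part of this programme on without added interferon. BST2, also called tetherin, is a membrane protein that holds budding enveloped viruses at the cell surface. ISG15 is a ubiquitin-like protein that is attached to other proteins, and USP18 is the protease that removes it and that also restrains the interferon receptor. IFITM3 sits in endosomal membranes and hinders the fusion of entering viruses. SAMD9L restricts poxviruses and restrains cell growth.

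The promoter sequences are shown to set the members with an exact match to the core of the response element beside SAMD9L, where none was found. The RefSeq promoter table (GRCh38.p14) held 4 of the 5 genes, without USP18, and the 250 bases before the annotated start are printed 5′ to 3′ on the strand of the gene. Capitals mark the core of the response element, GAAA followed by any 2 bases and GAAA, searched on both strands, with overlapping matches joined. In SAMD9L, which has no match to that core, capitals mark a shortened form, AAANNGAAA, that was chosen after the sequences had been read. The windows are chr19:17405631-17405880 on the minus strand for BST2, chr1:1013247-1013496 on the plus strand for ISG15, chr11:320861-321110 on the minus strand for IFITM3 and chr7:93148386-93148635 on the minus strand for SAMD9L.
BST2: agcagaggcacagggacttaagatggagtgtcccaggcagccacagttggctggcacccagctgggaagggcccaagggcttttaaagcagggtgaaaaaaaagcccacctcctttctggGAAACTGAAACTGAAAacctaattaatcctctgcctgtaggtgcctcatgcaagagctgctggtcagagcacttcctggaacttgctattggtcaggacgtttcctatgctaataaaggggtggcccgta
ISG15: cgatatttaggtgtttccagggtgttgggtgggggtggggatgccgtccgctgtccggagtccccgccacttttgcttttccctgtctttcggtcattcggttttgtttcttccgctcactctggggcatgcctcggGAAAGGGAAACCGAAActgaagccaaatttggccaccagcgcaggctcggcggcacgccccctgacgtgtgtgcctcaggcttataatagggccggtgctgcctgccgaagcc
IFITM3: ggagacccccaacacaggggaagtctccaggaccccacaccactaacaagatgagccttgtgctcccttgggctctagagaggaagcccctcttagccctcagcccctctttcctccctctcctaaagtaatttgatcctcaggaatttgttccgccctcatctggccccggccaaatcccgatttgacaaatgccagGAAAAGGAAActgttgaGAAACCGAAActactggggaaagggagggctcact
SAMD9L: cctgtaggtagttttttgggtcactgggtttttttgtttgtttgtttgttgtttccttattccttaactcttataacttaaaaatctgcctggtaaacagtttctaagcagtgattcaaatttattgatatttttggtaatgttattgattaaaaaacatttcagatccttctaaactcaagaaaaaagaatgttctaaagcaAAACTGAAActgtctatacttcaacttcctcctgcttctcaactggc
BST2, ISG15 and IFITM3 each held the core at 2 places, overlapping in BST2 and ISG15 and separate in IFITM3. In BST2 the pair spans bases 130 to 115 before the start, in ISG15 bases 113 to 98, and in IFITM3 the matches lie at bases 52 to 43 and 35 to 26. The core was held by 3.02% of all 35116 genes in the promoter table and the shortened form by 9.20%, and the latter overlaps the core. In SAMD9L the shortened form lies at bases 47 to 39. The gamma-activated site TTCNNNGAA was searched in the same way and was found at 2 places in BST2, 1 of them overlapping the core, and in 6.57% of all genes in the table. A match describes the letters of the window and does not show that a factor binds there.

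BST2 varied more than the other genes of the set, both between the groups and among the controls. On the log2 scale, where a difference of 1 equals a 2-fold change, BST2 measured 4.93, 7.23, 7.84, 8.06 and 5.87 in control clones 1 to 5. CENPU clones 1, 4, 5, 7 and 13 measured 4.49, 4.23, 5.55, 4.99 and 3.68. Controls 2, 3 and 4 were above every CENPU clone by more than 1 unit, control 5 was above the highest CENPU clone by less than 1 unit, and control 1 lay inside the CENPU range. The CENPU mean was 4.59 ± 0.72 (SD, n = 5) and the control mean 6.79 ± 1.35 (SD, n = 5). The log2 difference was -2.20, which is 4.59-fold, and 2 of the 14884 genes had a lower difference. CENPU clones 1, 4 and 13 lay under the array medians of 4.62 to 4.76, and signal over background was not measured here, so the fold is that of the deposited values. The SD among controls was larger than that of 99.99% of genes, and the SD among CENPU clones larger than that of 95.9%.

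ISG15, the modifier itself, ranked the controls as BST2 did, over a narrower range. Controls 1 to 5 had 10.18, 11.61, 11.64, 11.72 and 10.70. The values of CENPU clones 1, 4, 5, 7 and 13 were 10.53, 10.09, 10.54, 10.45 and 9.67. As for BST2, controls 2, 3, 4 and 5 stood above all CENPU clones, control 5 by the least. Control 1 fell below 3 of the 5 CENPU clones. The CENPU mean was 10.26 ± 0.38 (SD, n = 5) against 11.17 ± 0.69 (SD, n = 5) for controls, a log2 difference of -0.91 or 1.88-fold. The SD among controls exceeded that of 99.5% of genes.

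USP18, which takes ISG15 off its targets, differed less and had another order of controls. Its values in controls 1 to 5 were 8.73, 8.52, 9.04, 9.37 and 9.14. CENPU clones in the order 1, 4, 5, 7 and 13 had 8.41, 8.42, 8.50, 8.54 and 8.05. Only control 2 and CENPU 7 crossed, by 0.020 on the log2 scale, and control 2, high for BST2 and ISG15, was the lowest control here. The CENPU and control means were 8.38 ± 0.19 (SD, n = 5) and 8.96 ± 0.34 (SD, n = 5), a log2 difference of -0.58 or 1.49-fold. USP18 has near-identical copies in its chromosome region, so its signal cannot be assigned to 1 copy with certainty.

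IFITM3, the endosomal restriction factor, measured 6.99, 7.32, 7.40, 7.50 and 7.23 in controls 1 to 5. It measured 6.77, 6.88, 6.66, 7.09 and 6.71 in CENPU clones 1, 4, 5, 7 and 13. Only control 1 and CENPU 7 crossed, by 0.10. The CENPU clones averaged 6.82 ± 0.17 (SD, n = 5) and the controls 7.29 ± 0.19 (SD, n = 5), a log2 difference of -0.47 or 1.38-fold.

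SAMD9L was the 1 gene of the 5 with higher values in CENPU clones. In CENPU clones 1, 4, 5, 7 and 13 the values were 5.33, 5.34, 5.57, 5.26 and 5.39. In controls 1 to 5 they were 4.80, 4.80, 4.76, 5.26 and 4.82. Control 4 stood above the other 4 controls and crossed the lowest CENPU clone by 0.0021, and no other clones crossed. The CENPU and control means were 5.38 ± 0.12 (SD, n = 5) and 4.89 ± 0.21 (SD, n = 5), a log2 difference of 0.49 or 1.40-fold.

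The groups of clones overlapped for all 5 genes, so 0 of 5 had groups that did not overlap. Of all genes, 9.73% had groups that did not overlap. Control 4 was the highest control for all 5, including SAMD9L, whose group difference runs the other way. Control 1 was the lowest control for BST2, ISG15 and IFITM3, and CENPU 13 the lowest CENPU clone for BST2, ISG15 and USP18.

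**Figure D1:**
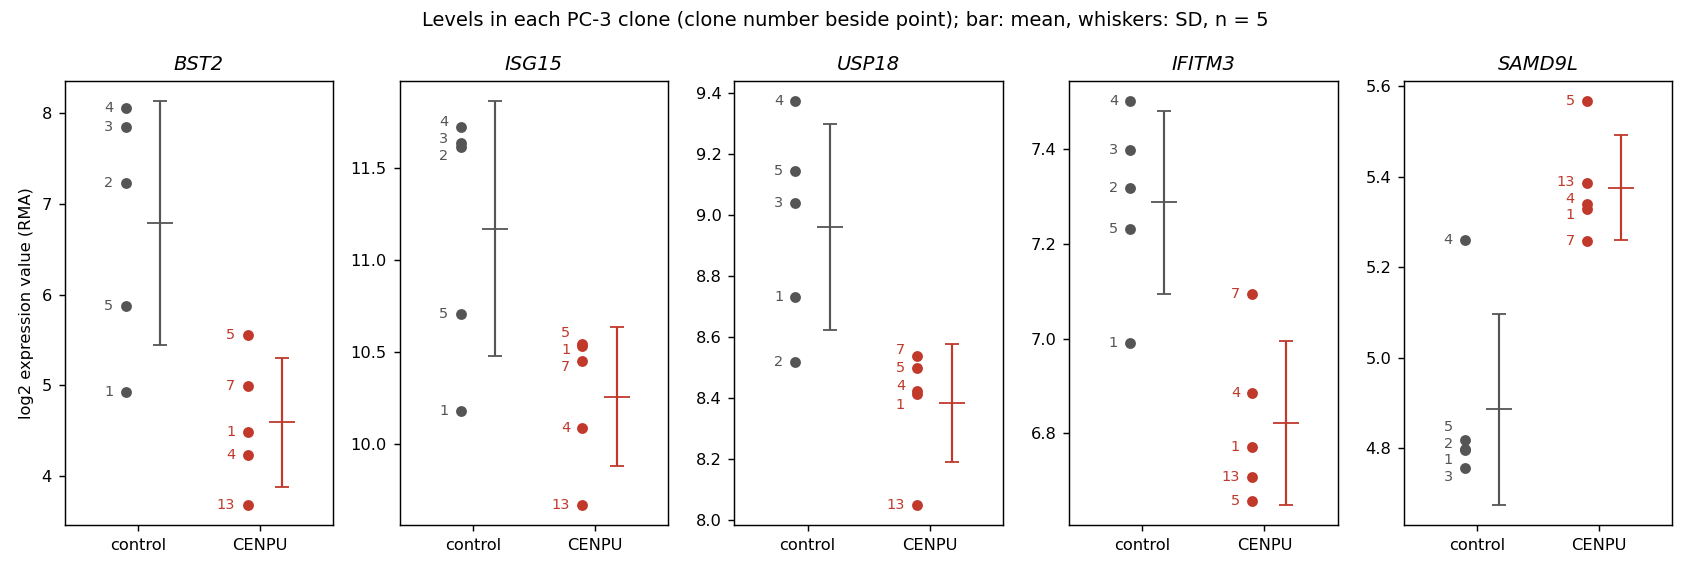
Log2 expression values (vertical axes, each gene on its own scale) of the 5 genes in 5 control and 5 CENPU clones; points are clones with their numbers, and bars show mean and SD. BST2 runs from 4.93 to 8.06 among controls and from 3.68 to 5.55 among CENPU clones, and control 4 is the highest control in every panel.

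Leaving out 1 clone at a time changed the size of these differences and left their sign. BST2 ranged from -2.66 without control 1 to -1.88 without control 4. ISG15 ranged from -1.16 without control 1 to -0.77 without CENPU 13, and USP18 from -0.69 without control 2 to -0.47 without control 4. IFITM3 ranged from -0.54 without control 1 to -0.41 without control 4. SAMD9L ranged from 0.44 without CENPU 5 to 0.58 without control 4. Control 4, the highest control for every gene, enlarged the differences of BST2, ISG15, USP18 and IFITM3 and reduced that of SAMD9L.

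**Figure D2:**
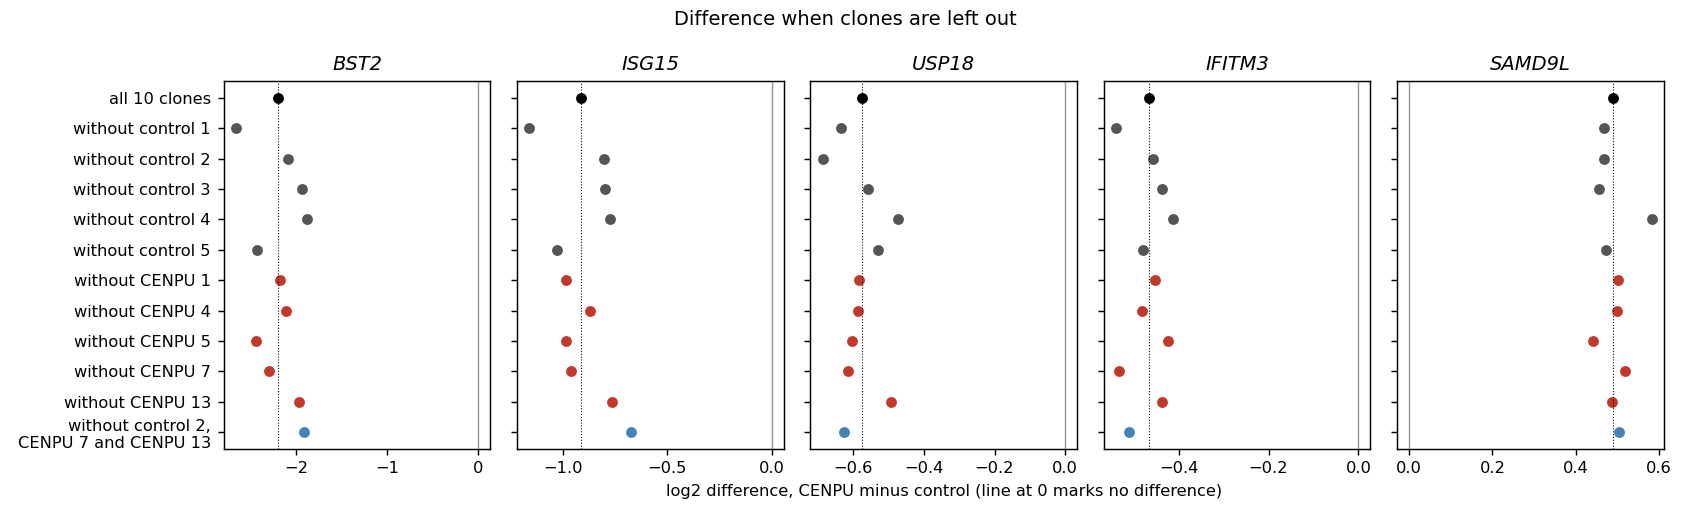
Log2 difference, CENPU minus control (horizontal axes, each gene on its own scale), with all 10 clones, with each clone left out, and without control 2, CENPU 7 and CENPU 13 together. The dotted line is the value from all clones and the grey line is 0; BST2 stays between -2.66 and -1.88 when 1 clone is left out.

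The arrays also differed in a way that went with the length of genes. The rank correlation, across 11916 protein-coding genes, between genomic span and the deviation of a clone from the mean of all clones was -0.16, -0.036, 0.20, 0.32 and 0.36 for CENPU clones 1, 4, 5, 7 and 13. For controls 1 to 5 it was -0.093, -0.36, -0.16, -0.28 and -0.16. CENPU 7 and 13 thus lay at the end where long genes read higher, and control 2 at the other. Every control was below 0, as were CENPU 1 and 4, while CENPU 5, 7 and 13 were above it. The trend thus went in part with the groups. Across the same genes, span and the log2 difference, CENPU minus control, had a rank correlation of 0.33. ISG15, IFITM3 and BST2 are short genes, at percentiles 1.12, 1.44 and 6.07 of span, whereas SAMD9L and USP18 lie at 39.7 and 50.5. With that trend taken out of each array the log2 differences were -2.08 for BST2, -0.78 for ISG15, -0.65 for USP18, -0.33 for IFITM3 and 0.47 for SAMD9L. Without control 2, CENPU 7 and CENPU 13, which lie at its ends, they were -1.92, -0.67, -0.63, -0.51 and 0.50 in the same order.

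As a check of the labels, CENPU itself averaged 9.34 ± 0.43 (SD, n = 5) where it was overexpressed, against 6.26 ± 0.29 (SD, n = 5) elsewhere, with no overlap. An array has no read depth, so the number of clones limits the precision. Of the epithelial markers 5 of 6 were measured, with KRT18 and KRT19 between 10.20 and 11.24, KRT8 between 6.36 and 7.07 and EPCAM between 5.74 and 7.62. VIM, which PC-3 also carries, ran from 8.26 to 8.75 in CENPU clones and from 7.58 to 7.93 in controls and rose by 0.74 (limma adjusted p = 0.0045). The prostate luminal genes KLK2 and KLK3, known to be low in PC-3, measured 5.33 to 5.78 and FOLH1 2.62 to 3.33. The 2 measured of 6 leukocyte markers, CD14 and LYZ, lay between 3.33 and 4.52, with summed levels of 7.40 to 8.29 in CENPU clones and 7.58 to 8.25 in controls. The 2 measured of 6 fibroblast markers lay between 2.55 and 3.13, and the 4 of 6 endothelial markers between 4.18 and 10.51, the highest being KDR in CENPU 7. The part of other cells in the results was not tested.

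Deviations of each clone from its own group mean leave out the difference between groups and show how the 5 genes move from clone to clone. Over the 10 clones, Pearson's r of these deviations was 0.95 between BST2 and ISG15. It was 0.66 between BST2 and IFITM3 and 0.67 between ISG15 and IFITM3. USP18 had r of 0.47 with BST2, 0.38 with ISG15, 0.50 with IFITM3 and 0.50 with SAMD9L. SAMD9L had 0.46 with BST2, 0.32 with ISG15 and 0.12 with IFITM3. The largest deviation of SAMD9L was in control 4, at 5.26 against a control mean of 4.89, so its r values rest largely on that clone. These values are descriptions over clones that share an array platform and the span trend above.

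The genes most like each of the 5 were then looked up among the 6902 genes whose pooled SD within groups reached 0.2. IFI35, an interferon-induced leucine zipper protein, was most like BST2 (r of deviations 0.97), followed by ISG15 and the RING finger gene RNF208 (0.90). PLAAT4, a retinoid-inducible acyltransferase, and IFI35 were each at 0.93 with ISG15, after BST2. UBA7, the activating enzyme for ISG15, was most like IFITM3 (0.94), ahead of IRF9, the DNA-binding partner of the STATs (0.90), and the exonuclease gene ISG20 (0.90). For USP18 the first places went to CTAG1A, CXCL2 and KRTAP19-6 (0.90, 0.88 and 0.88), and for SAMD9L to KRTAP12-3, APH1B and ZFX-AS1 (0.92, 0.90 and 0.86). Among the 50 genes most like each, listed interferon pathway genes or other members numbered 11 for BST2, 8 for ISG15 and 10 for IFITM3 but 1 each for USP18 and SAMD9L. Such genes made up 69 of the 6902. The r values named here are the highest of that search over 10 clones, and how high r would reach by chance was not tested.

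Other interferon-stimulated genes were divided in direction, with 28 differences above 0 and 21 below. Of 83 listed outside the 5, 49 were measured, and 2 rose, 2 fell and 45 did not pass (limma, Benjamini-Hochberg adjusted p under 0.05). Over all genes 10.1% passed, 5.31% higher and 4.79% lower, against 8.16% of this list. The median log2 difference of the list was 0.095, and that of all genes was -0.018. Genomic span and the log2 difference had a rank correlation of 0.31 over the 49, where protein-coding genes had 0.33. The part of the span trend in the division was not tested. At an unadjusted p under 0.05 there were 16 of the 49, where 27.9% of all genes stood. For 4 of the 49 (8.16%) the groups did not overlap, against 9.73% of all genes. The higher and lower counts moved with every clone left out. They were 0 and 0 without control 2, 4 or 5, 1 and 0 without control 3 or CENPU 13, and 1 and 1 without CENPU 5. They were 1 and 2 without control 1, 2 and 1 without CENPU 1, 3 and 0 without CENPU 4, and 0 and 3 without CENPU 7.

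RNF213, a very large ubiquitin ligase that binds ISG15, ran from 8.69 to 9.27 in CENPU clones and from 8.08 to 8.67 in controls. It rose by 0.54 ± 0.14 (SE; limma adjusted p = 0.0366). TRIM25, the ubiquitin ligase that activates the RNA sensor RIG-I, ran from 10.75 to 10.95 against 10.27 to 10.64 and rose by 0.36 (limma adjusted p = 0.0328). TRIM14, an adaptor of antiviral signalling at mitochondria, ran from 6.72 to 7.23 against 7.25 to 7.52 and fell by 0.42 (limma adjusted p = 0.0374). UBA7 ran from 5.02 to 5.85 against 5.61 to 6.54 and fell by 0.70 (limma adjusted p = 0.0473). The groups did not overlap for RNF213, TRIM25 and TRIM14, and they did for UBA7. RNF213 lies at percentile 88.1 of span, and its difference was 0.30 with the span trend removed and 0.28 without the 3 clones at the ends of that trend, and it passed in neither.

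Several genes of the list had differences of the size of the 5 and did not pass. Like BST2 and ISG15, IFI35 had its highest values in controls 2, 3 and 4 (8.76, 9.06 and 9.06) and its lowest in CENPU 13 (7.46), with a log2 difference of -0.67. HELZ2, a helicase that works as a nuclear receptor coactivator, measured 7.90, 7.99 and 8.03 in the same 3 controls and 6.84 in CENPU 13, with a log2 difference of -0.52. In the other direction, the RNA-binding genes IFIT2 and IFIT3 had log2 differences of 0.57 and 0.78, and both were highest in CENPU 7 (6.87 and 6.96). HERC5, the ligase that attaches ISG15, and the helicase gene DDX60 had 0.58 and 0.49, and CENPU 7 was again the highest clone (6.29 and 5.12). Limma adjusted p for these 6 genes ran from 0.0967 for HELZ2 to 0.220 for IFIT3.

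**Figure D3:**
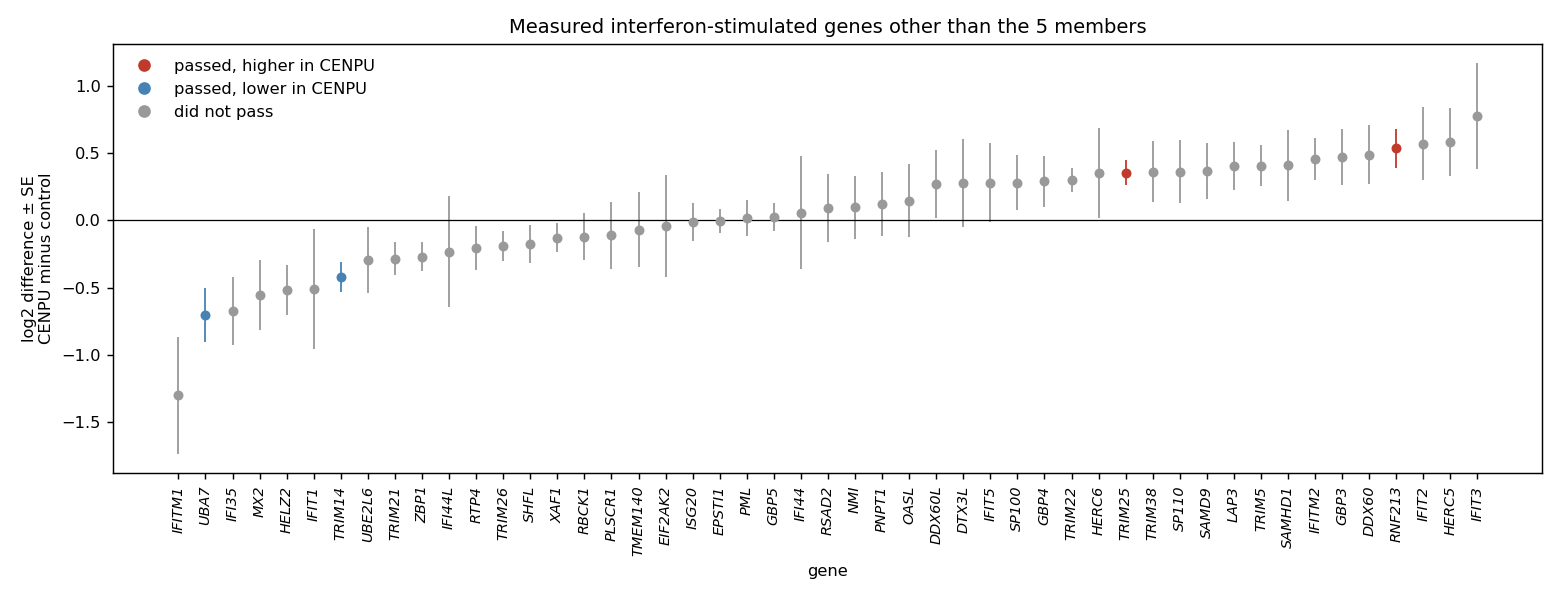
Log2 difference with its standard error (vertical axis) for the 49 measured interferon-stimulated genes other than the 5, ordered by size. Red and blue points passed the limma test; most genes lie between -0.7 and 0.6, with IFITM1 at -1.30 and IFIT3 at 0.78.

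CENPU 7 was the highest of the 10 clones for 18 of the 49 genes and the lowest for 0, while it was the highest clone for 6.48% of all genes. Control 1 was the lowest clone for 11 of the 49 and the highest for 0, against 5.08% and 5.29% of all genes. The median deviation of the list from the mean of all clones was 0.46 in CENPU 7, 0.21 in control 4 and 0.15 in control 3, and it was -0.28 in CENPU 4 and -0.23 in control 1. High and low clones for the list were thus found in both groups. CENPU 7 was inside the CENPU range for BST2 and ISG15 and highest of its group for USP18 and IFITM3, and it was the lowest CENPU clone for SAMD9L.

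**Figure D4:**
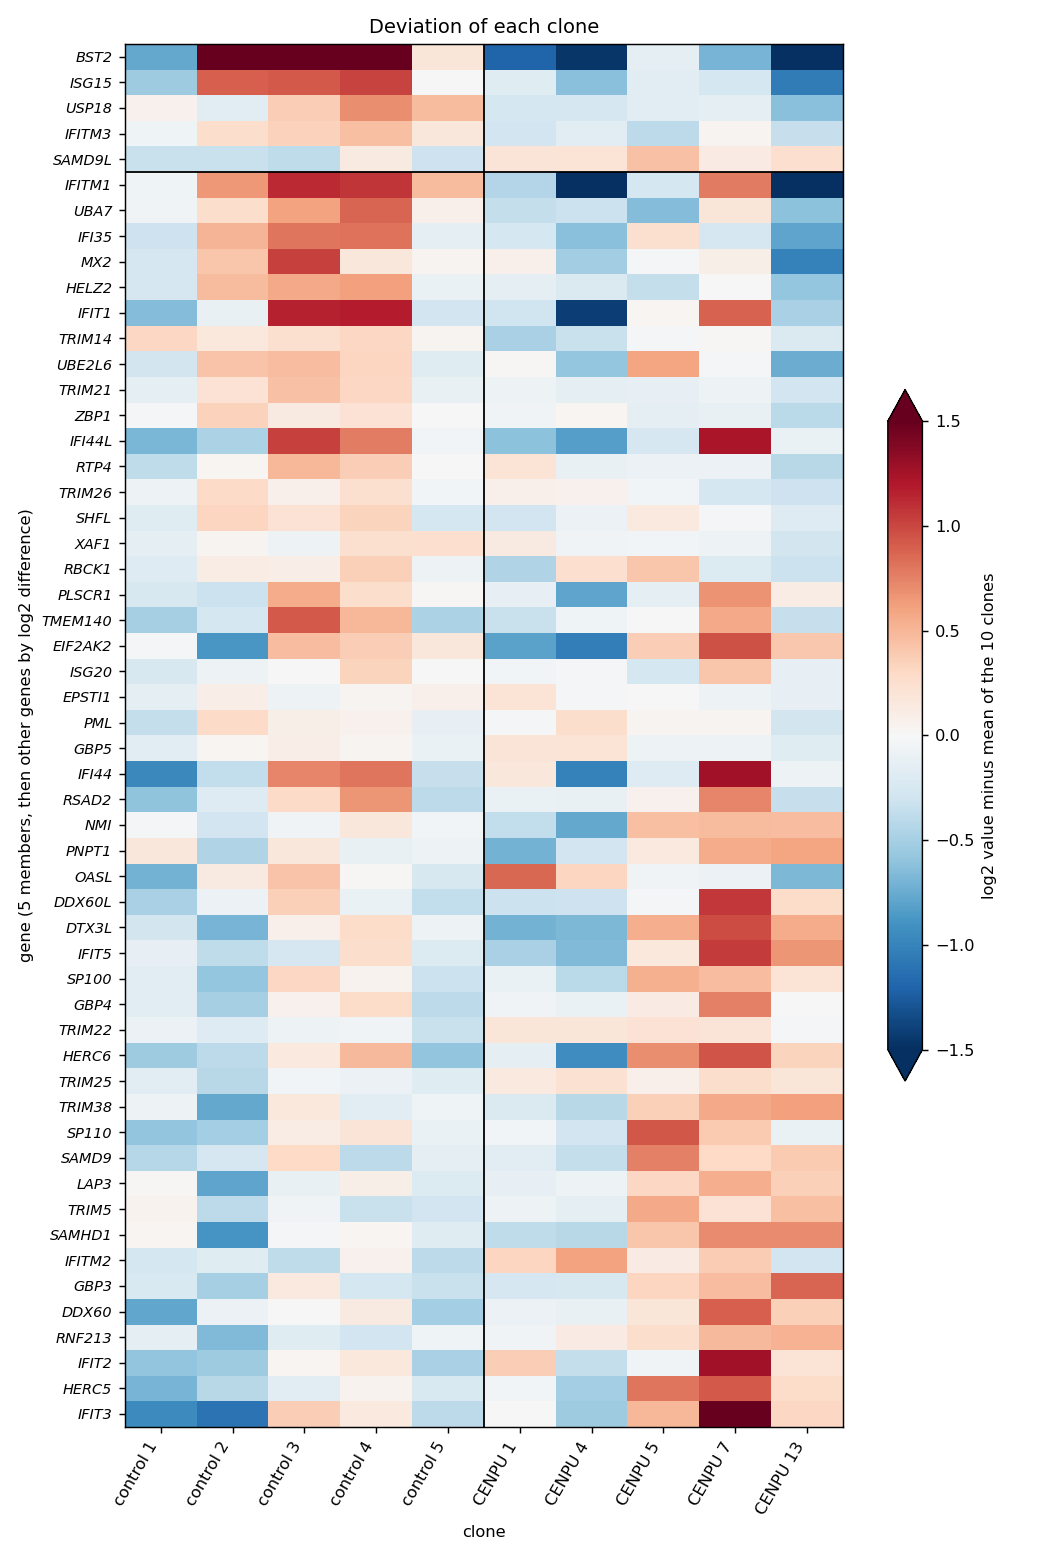
Deviation of each clone (columns) from the mean of the 10 clones, in log2 units by colour, for the 5 genes (top rows) and the 49 others ordered by their group difference. Controls 2, 3 and 4 are high for BST2, ISG15, IFITM1, UBA7 and IFI35, and CENPU 7 is high for many of the lowest rows.

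The near relatives of the 5 genes were read in turn. IFITM1, which acts at the cell surface, measured 9.82, 10.54, 11.00, 10.96 and 10.36 in controls 1 to 5 and 9.45, 8.05, 9.63, 10.67 and 8.37 in CENPU clones 1, 4, 5, 7 and 13. Only CENPU 7 reached the control range. Its log2 difference was -1.30 and did not pass (limma adjusted p = 0.0784). IFITM2, an endosomal protein like IFITM3, ran from 10.02 to 10.90 in CENPU clones and from 9.91 to 10.37 in controls, with a log2 difference of 0.46 that did not pass (limma adjusted p = 0.0879). IFITM1, IFITM2 and IFITM3 share much of their sequence, so part of each signal may come from the others. SAMD9, the paralog next to SAMD9L, had a log2 difference of 0.37 (limma adjusted p = 0.277), and IFITM10 and IFITM5 had 0.042 and -0.023. Of 6 listed relatives 5 were measured and 0 passed, where 10.1% of all genes did. Without CENPU 7 IFITM1 differed by -1.66 and passed (limma adjusted p = 0.0280), and without CENPU 13 IFITM2 differed by 0.59 and passed (limma adjusted p = 0.0280).

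The enzymes that attach ISG15 did not share a direction. UBA7, the first enzyme of the cycle, fell, as given above, and TRIM25 rose. UBE2L6, the second, had a log2 difference of -0.30, and the ligases HERC5 and HERC6 had 0.58 and 0.35, none of which passed. Of 7 measured members of this list 1 rose, 1 fell and 5 did not pass, with a median of 0.35. UBA7 and TRIM25 belong also to the list of interferon-stimulated genes and are the same 2 calls.

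Upstream of these genes, JAK2, the kinase of the interferon gamma receptor, ran from 4.11 to 4.44 in CENPU clones and from 3.53 to 3.81 in controls. It rose by 0.51 ± 0.094 (SE; limma adjusted p = 0.0102), at levels under the array medians. JAK1, which serves all interferon receptors, had a log2 difference of 0.88 and did not pass (limma adjusted p = 0.0653), except without CENPU 1 (limma adjusted p = 0.0149). With the span trend removed JAK2 differed by 0.27 and did not pass. Of 5 measured receptor and kinase genes 1 rose and 4 did not pass, where 10.1% of all genes passed. None of the 22 listed interferon genes had a named probe set, and the receptor genes IFNAR1 and IFNAR2 were not analysed here.

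Of 12 measured STAT and IRF genes 0 passed in limma, where 10.1% of all genes did. At an unadjusted p under 0.05 there were 3, where 27.9% of all genes stood. IRF7, which interferon induces and which switches on interferon genes, measured 7.63, 8.38, 8.54, 9.88 and 8.46 in controls 1 to 5. In CENPU clones it measured 7.60, 7.48, 7.05, 8.61 and 6.74 in the order 1, 4, 5, 7 and 13. Control 4 was highest and CENPU 13 lowest, and the log2 difference of -1.08 did not pass (limma adjusted p = 0.112). IRF9 had -0.70 (limma adjusted p = 0.0663), IRF3 -0.41 (limma adjusted p = 0.0781) and IRF1 -0.28 (limma adjusted p = 0.264). IRF9 passed without control 1, at -0.84 (limma adjusted p = 0.0340), and without CENPU 7 (limma adjusted p = 0.0493), and IRF3 without CENPU 1 (limma adjusted p = 0.0230).

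Among 15 measured sensors and adaptors 0 rose, 2 fell and 13 did not pass, with a median of -0.096. Thus 13.3% of this list passed. Over all genes 10.1% passed, 5.31% higher and 4.79% lower, and these shares stand beside each list of this paragraph. MYD88, the adaptor of Toll-like receptors, ran from 7.66 to 7.98 in CENPU clones and from 8.05 to 8.50 in controls and fell by 0.56 (limma adjusted p = 0.0102). CGAS, the sensor of cytosolic DNA, ran from 7.04 to 7.84 against 7.87 to 8.34 and fell by 0.68 (limma adjusted p = 0.0261). Its partner STING1 had a log2 difference of 0.45 and the kinase gene TBK1 0.65, and neither passed. Without CENPU 5 STING1 differed by 0.57 and passed (limma adjusted p = 0.0213). In the class I antigen presentation list, TAPBP, which loads peptides onto these molecules, fell by 0.43 (limma adjusted p = 0.0237), and 5 of 6 measured genes did not pass. TAPBP did not pass without CENPU 13 or without control 2, 3 or 4, nor CGAS without CENPU 5 or without control 4 or 5, each left out alone. Among the brakes on signalling 4 of 12 were measured and 0 passed in limma. The 2 at an unadjusted p under 0.05, where 27.9% of all genes stood, were SOCS3 at -0.51 and CISH at -0.28.

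**Figure D5:**
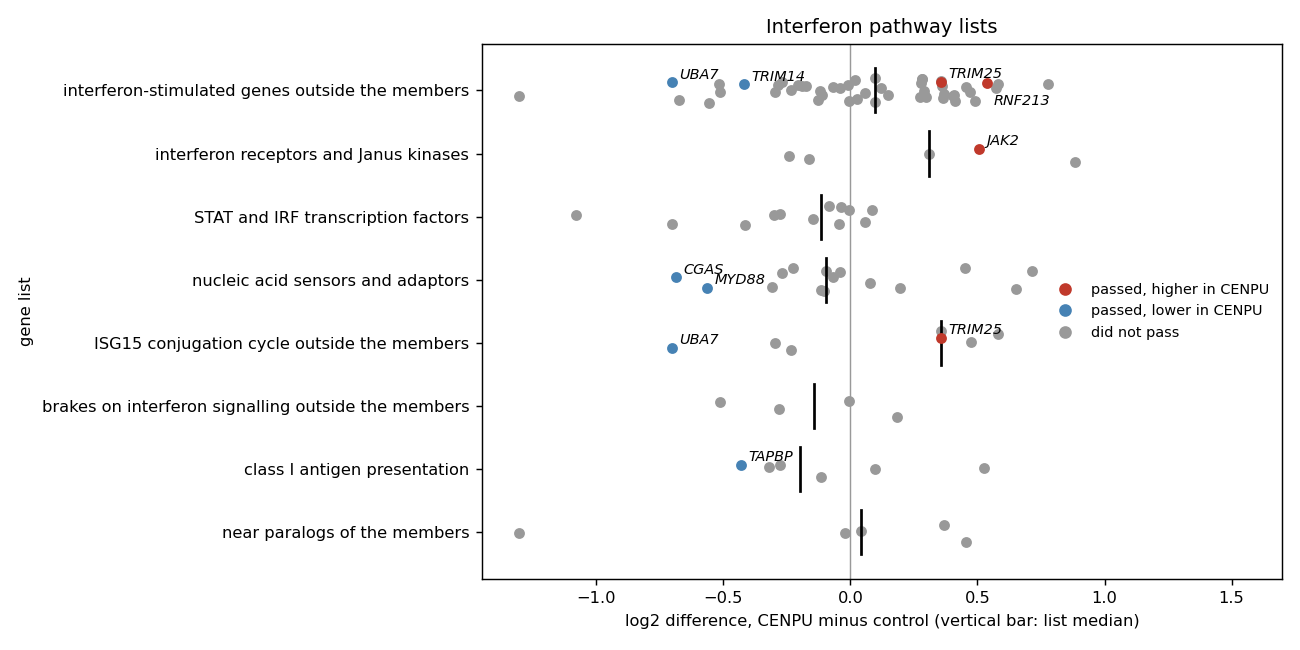
Log2 differences (horizontal axis) of the measured genes of each interferon pathway list, 1 point per gene, with the list median as a bar. Genes that passed are named; JAK2, TRIM25 and RNF213 are higher, and UBA7, TRIM14, CGAS, MYD88 and TAPBP lower in CENPU clones.

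The listed genes were also set beside their promoters. Of 40 measured interferon-stimulated genes outside the 5 with an entry in the promoter table, 22 (55.0%) held the core of the response element. These 22 had a median log2 difference of 0.027, with 11 above 0 and 11 below, and the 18 without a match had 0.28.

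The genes on either side of each of the 5 were compared as up to 5 measured neighbours on each side. Of 50 neighbours 7 were lower and 0 higher in limma, while 4.79% of all genes were lower and 5.31% higher. Among the 10 neighbours of BST2, MRPL34, DDA1, ANO8 and COLGALT1 fell by 0.59, 0.34, 0.74 and 0.48, and all 10 neighbours had differences below 0, between -0.74 and -0.076. Among those of ISG15, KLHL17 and C1orf159 fell by 0.43 and 0.39. Among those of USP18 the apoptosis gene BID, the fifth on its side, fell by 0.58. None of the 10 neighbours of IFITM3, which include IFITM1 and IFITM2, and none of the 10 of SAMD9L passed. That each neighbour of BST2 differed by less than BST2 itself was nearly fixed beforehand. BST2 was chosen on this contrast, and 2 of the 14884 genes had a lower difference. Leaving out 1 clone gave 4 to 11 neighbours that passed, with 4 without control 2 and 11 without CENPU 1.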

How the data were processed

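RNA of 10 PC-3 clones was measured on 1-channel Affymetrix arrays after biotin labelling, per the labels' protocols. The authors deposited log2 expression values for 53617 probe sets, from 1.65 to 15.0. Partek and RMA are named per the submitters' processing notes, and RMA includes background correction and quantile normalization, which removes shifts shared by most genes. The log2 scale was read from the range of values. No source used here states the build behind the array annotation. A platform table gave 1 symbol to 16098 rows, several to 0 and none to 37519. All 16098 matched RefSeq (GRCh38.p14) by gene ID and covered 14884 genes, each shown by its row of highest mean. RefSeq served for names, span and neighbours, and its promoter table for sequences.

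Every named row was tested with limma 3.58.1 in R 4.3.3 (lmFit, eBayes, no covariates), with Benjamini-Hochberg adjustment over 16098 rows and a threshold of 0.05. The fit was tested on simulated data. The labels describe separate clonal isolates, so the spread behind each p-value is that of clones. The 5 genes and the lists were chosen with earlier results of these data known. Named genes were the 5, those that passed in each list or its 4 of smallest p, the 3 most alike in clone deviations, and 10 pathway genes set in advance; IFI35, HELZ2, IFIT2, IFIT3, DDX60, UBE2L6, HERC6, IFITM5 and the neighbours were named after their values were seen. Alternatives were other scaling, left-out clones, a clone number block, removal of the span trend by loess, the mean of a gene's rows, a dim-row filter, all rows, eBayes with trend, array weights and other thresholds.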

Additional observations from a re-analysis of the deposited data

Results flagged for a closer look

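In 2 of the 5 genes a single clone stood apart from the rest of its group, by a gap to the nearest clone of more than 0.71 of the range of the group (Dixon's criterion for 5 samples). SAMD9L measured 5.26 in control 4 against 4.82 in the next control, a gap of 0.87 of the range. USP18 measured 8.05 in CENPU 13 against 8.41 in the next CENPU clone, a gap of 0.75 of the range. Among the other named genes, TYK2 was high in CENPU 4 (8.92), STING1 low in CENPU 5 (7.14) and IFITM10 low in control 1 (6.25). Chance flags about 1 in 20 groups, and 5 were found in 70 groups.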

How the results depend on the processing

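The 5 genes kept the sign of their difference, and moved by less than the pooled SD within groups, under each alternative read for them. These were other scaling, left-out clones, the clone number block, removal of the span trend and the mean of a gene's rows. Their differences were not read under the dim-row filter, all rows, eBayes with trend or array weights. Leaving out 1 clone gave -2.66 to -1.88 for BST2, -1.16 to -0.77 for ISG15, -0.69 to -0.47 for USP18, -0.54 to -0.41 for IFITM3 and 0.44 to 0.58 for SAMD9L. Clone numbers 1, 4 and 5 occur in both groups. Across genes, clones of different numbers deviated with r from -0.57 (CENPU 13 with control 2) to 0.52 (CENPU 1 with control 2). Same-numbered clones deviated with r of -0.38, 0.10 and 0.023, which cannot tell whether they share more than a number. The replicate block, which compares only those 6 clones, gave -1.53 for BST2 and -0.48 for ISG15, 55 genes over the array, 0 higher and 0 lower interferon-stimulated genes, 0 higher and 1 lower gene of the other interferon lists, and 0 neighbours.

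The counts over lists were small and moved with most settings. Genes that passed over the array numbered 1504, of which 791 were higher and 713 lower. After quantile normalization 754 were higher and 952 lower, and after median centring 585 and 758, where the median of all genes moved by less than 0.1. Leaving out 1 clone gave 613 to 2471 genes, 0 to 3 higher and 0 to 3 lower interferon-stimulated genes, 1 to 2 higher and 1 to 4 lower genes of the other lists (1 and 3 in all clones), and 4 to 11 neighbours. Without control 2, CENPU 7 and CENPU 13 the numbers were 470 genes, 0 higher and 0 lower interferon-stimulated genes, 0 higher genes of the other lists and 2 neighbours. At an adjusted p of 0.01 they were 253, 0 and 0, 0 and 0, and 2. At 0.10 they were 2588, 4 and 4, 3 and 5, and 14. Interferon-stimulated genes numbered 1 higher after quantile normalization, 1 higher and 0 lower after median centring, 1 and 1 with the span trend removed and with all rows tested, and 1 lower with trended eBayes. Genes of the other lists that were higher numbered 0 with the dim-row filter, which removed JAK2, and 2 with array weights, where 11 neighbours passed.

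UBA7 lost its call in 14, RNF213 in 13, TRIM14 in 12 and TRIM25 in 11 of the alternatives, TAPBP in 7, CGAS and JAK2 in 4 each and MYD88 in 2. A call was gained in 3 alternatives each by IRF9, JAK1, STING1 and IFITM2, in 2 each by IRF3 and IFITM1 and in 1 each by HERC5, SOCS3 and B2M. Signs turned for 3 named genes. SOCS1, at -0.0043 in all clones, was 0.24 without the 3 clones, 0.35 with the replicate block, 0.12 with the span trend removed, 0.0028 with array weights and -0.091 to 0.080 with 1 clone left out. IFITM10, 0.042 in all clones, was -0.025 after quantile normalization and -0.026 to 0.093 with 1 clone left out, and USP5, -0.23 in all clones, was 0.0075 with the block. The causes were not tested.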
